A study of Mus musculus with 3 samples.

Results

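The genes described here are 10 interferon-induced antiviral effectors, Ifit1, Ifit2, Ifit3, Eif2ak2, Oasl2, Rsad2, Mx2, Bst2, Ifi44 and Xaf1, in mouse brain from a study of arterial occlusion. They were chosen by symbol, and all 10 were among the 17992 symbols with read counts. The series holds 3 RNA-seq libraries from brains of adult WT C57BL/6 mice. Sham had no occlusion that the labels mention, Vehicle is the middle cerebral artery occlusion model, in which a large artery of the forebrain is blocked, and AGNHW, which stands for the Chinese medicine pill Angong Niuhuang Wan, was dosed at 3 mg per g per day. The labels do not say whether the AGNHW mice were occluded, whether Sham received a vehicle, which brain region was taken, when, or how many mice stand behind a library. With 1 library in each group there is no replicate, and every difference below is between libraries.

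Interferons are secreted proteins that alert cells to infection. Type I interferon binds the receptor made of Ifnar1 and Ifnar2, the kinases Jak1 and Tyk2 then phosphorylate transcription factors such as Stat2, and a complex that holds Stat2 and Irf9 binds the interferon-stimulated response element in the promoters of target genes. The 10 genes are targets of this kind. Their products sense or bind viral RNA, stop translation, block replication, hold virus particles at the cell surface or favour death of the infected cell. In the brain, microglia, endothelium, astrocytes and neurons can all express them, at a low level also without infection. The genes were selected with their counts in all 3 libraries, low in Vehicle, already known, so their values are given as a description.

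The response element has at its core 2 copies of GAAA that are 2 bases apart. RefSeq promoter windows (build GRCm38.p6, from 250 bases before to 50 bases after each annotated start) were given for 9 of the 10 genes and were searched on both strands for GAAA, any 2 bases and GAAA again, which reads TTTC, 2 bases and TTTC on the other strand. The core was present in 5 of the 9 genes, Ifit1, Ifit3, Rsad2, Bst2 and Eif2ak2, or 55.6%. It was present in 3.99% of all 27025 genes of the table, searched in windows of the same length (3.44% of 32851 windows). The 5 stretches are shown because they carry this element, with the matches in capitals. They are joined by that of Ifi44, whose 2 overlapping matches have spacings of 1 and of 3 bases, searched after the promoters had been seen. Each is read along its gene, and positions are counted from the annotated start.
Ifit1 (chr19:34640755-34640843, plus strand, positions -134 to -46): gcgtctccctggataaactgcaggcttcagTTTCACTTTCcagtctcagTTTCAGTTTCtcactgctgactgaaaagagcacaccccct
Ifit3 (chr19:34583343-34583446, plus strand, positions -186 to -83): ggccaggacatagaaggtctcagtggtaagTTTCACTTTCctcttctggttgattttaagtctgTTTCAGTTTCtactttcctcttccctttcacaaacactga
Rsad2 (chr12:26456533-26456602, minus strand, positions -150 to -81): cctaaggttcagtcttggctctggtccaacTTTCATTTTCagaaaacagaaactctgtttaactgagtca
Bst2 (chr8:71537557-71537632, minus strand, positions -160 to -85): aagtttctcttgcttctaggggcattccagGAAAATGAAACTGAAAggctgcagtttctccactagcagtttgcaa
Eif2ak2 (chr17:78882543-78882572, minus strand, positions 1 to 30): gaaggcggagtccgccggGAAAACGAAAca
Ifi44 (chr3:151749920-151749995, minus strand, positions -85 to -10): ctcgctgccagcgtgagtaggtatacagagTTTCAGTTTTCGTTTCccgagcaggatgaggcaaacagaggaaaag

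Ifit1 and Ifit3, neighbours on chromosome 19, shared the same pair of cores in the same order, TTTCACTTTC and then TTTCAGTTTC. The 2 matches in Bst2 overlapped each other, and the second match in Ifit3 overlapped one with a spacing of 3 bases. The match in Eif2ak2 lay just past the annotated start. With either of the other spacings counted, 7 of the 9 genes had a match, Xaf1 by a spacing of 1 base past its start, against 9.91% of all genes of the table. Ifit2 and Oasl2 had no match of the 3 forms in these windows. A match describes letters only, and binding was not measured.

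The expression data came as whole-number read counts. The libraries held 15718594 to 18286151 counts, and levels are given as CPM (counts scaled to a library of 1000000 reads, with factors from the trimmed mean of M-values, TMM). A gene was compared when its mean over the libraries was at least 1 CPM, which held for all 10 genes and for 15558 genes in all. It was called higher or lower at a ratio of at least 1.5-fold whose 95% interval left out 1. That interval, given in parentheses, is an exact conditional binomial one. It covers counting error only and leaves out the spread between animals and between libraries, since each group has 1 library. Reads that carry no molecular identifiers need not be separate molecules, so the counting error itself may be larger than the interval. Markers of neurons, astrocytes and oligodendrocytes were abundant in every library, between 5699 and 9846 CPM summed over each list. In Vehicle the 9 counted pituitary genes summed to 3749 CPM, against 4.52 in Sham, where 4 of them were at 0, and 4.6 in AGNHW, where 3 were at 0.

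All 10 genes had their highest level in Sham. In Vehicle, 9 of the 10 were lower than in Sham and 0 higher, where 14.2% of all compared genes were lower and 8.66% higher. Summed over the 10 genes, 2073 counts in Sham (110 CPM) stood against 416 in Vehicle (27.4 CPM), which was 4.03-fold lower (3.62 to 4.49). AGNHW held 632 counts (34.6 CPM), 3.18-fold lower than Sham (2.91 to 3.49). Fewer responding cells and less RNA per cell cannot be told apart in whole-tissue RNA.

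**Figure D1:**
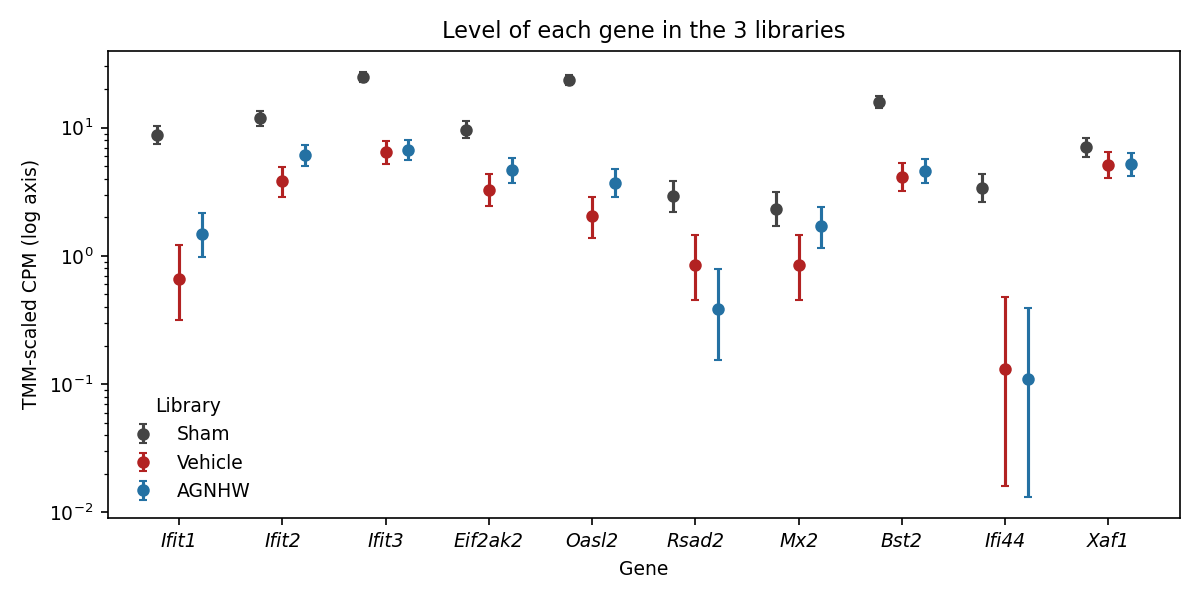
Level of each of the 10 genes in TMM-scaled CPM (vertical log axis) in the Sham, Vehicle and AGNHW libraries; bars are 95% exact Poisson intervals for counting error of a single library. Sham is the highest point for every gene, while Vehicle and AGNHW lie close together for Ifit3, Bst2, Ifi44 and Xaf1.

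The IFIT genes encode repeat-rich proteins that bind foreign RNA and restrict its translation. Ifit1, whose product binds viral RNA with an incomplete cap, had 165 counts in Sham, 10 in Vehicle and 27 in AGNHW. It was 13.3-fold lower in Vehicle than in Sham (7.07 to 28.3) and 5.93-fold lower in AGNHW (3.93 to 9.27). Ifit2, which protects neurons from several viruses in mice, had 222, 58 and 111 counts in the same order. It was 3.09-fold lower in Vehicle (2.31 to 4.21) and 1.94-fold lower in AGNHW (1.54 to 2.46). The difference between these neighbouring genes was larger than counting error, since their intervals did not overlap in either comparison with Sham.

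Ifit3, a partner of the other IFIT proteins, had 467 counts in Sham, 98 in Vehicle and 122 in AGNHW. It was 3.85-fold lower in Vehicle than in Sham (3.09 to 4.84) and 3.71-fold lower in AGNHW (3.04 to 4.57). Its counts are uncertain, because 51.2% of the 50-base windows of its transcript also occur in the neighbouring copy Ifit3b, and how such reads were assigned is not given in the sources used here. Ifit3b had 159, 49 and 65 counts. With both genes added, Vehicle was 3.44-fold below Sham (2.87 to 4.15) and AGNHW 3.25-fold (2.75 to 3.85). The sum does not depend on how counted reads were split between the copies, but any shared reads left uncounted are missing from it. Ifit1 shared 7.13% of its windows with other genes and Ifit2 none (0%).

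Oasl2 and Eif2ak2 belong to the arm that answers double-stranded RNA. Oasl2, of the oligoadenylate synthetase family that works with RNase L, had 442 counts in Sham, 31 in Vehicle and 68 in AGNHW. It was 11.5-fold lower in Vehicle than in Sham (8.0 to 17.2) and 6.31-fold lower in AGNHW (4.88 to 8.27). With a prior count of 5, its log2 ratio of Vehicle to Sham was the lowest of all 15558 genes (rank 1). Without the prior count, Ifi44 and Ifit1 had lower ratios than Oasl2. Eif2ak2 encodes PKR, the kinase that stops translation by phosphorylating the initiation factor eIF2alpha when it meets double-stranded RNA. It had 182, 50 and 85 counts, which was 2.94-fold lower in Vehicle (2.14 to 4.11) and 2.08-fold lower in AGNHW (1.6 to 2.72). In the GENCODE M21 annotation, 3.40% of its exon bases overlap Gm26637 on the opposite strand, and reads of such partners cannot be told apart with the strand setting unknown.

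Partners of Eif2ak2 were given by a list of their own. The 10 listed genes include the other eIF2alpha kinases and the Eif2ak2 regulators Prkra, Tarbp2 and Dnajc3. Of them, 0 were lower in Vehicle than in Sham and 1 was higher, where 14.2% of all compared genes were lower and 8.66% higher. The 1 higher was near the share of all compared genes. The listed gene that was higher was Tarbp2, an RNA-binding inhibitor of PKR, with a ratio of 1.63 (1.44 to 1.85). The kinases Eif2ak3 and Eif2ak4 had ratios of 0.700 and 0.724 and did not pass. Between AGNHW and Sham, none of the 10 passed (0 higher, 0 lower), where 3.32% of all compared genes were higher and 5.47% lower.

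Rsad2, Mx2 and Bst2 are described next. Rsad2 encodes viperin, an enzyme that makes a chain-terminating nucleotide, and had 55 counts in Sham, 13 in Vehicle and 7 in AGNHW. It was 3.42-fold lower in Vehicle (1.84 to 6.82) and 7.63-fold lower in AGNHW (3.46 to 19.8). Mx2, a dynamin-like GTPase, had 44, 13 and 31 counts, 2.74-fold lower in Vehicle (1.45 to 5.54), while the ratio of AGNHW to Sham, 0.726 (0.443 to 1.18), did not pass. These were the genes with the fewest counts in Sham, and their intervals are wide. Mx2 shared 6.71% of its 50-base windows with Mx1, which had 36, 5 and 6 counts and a mean level too low to be compared. Bst2 encodes tetherin, which holds budding virus at the cell surface. It had 299, 63 and 84 counts, 3.84-fold lower in Vehicle (2.91 to 5.12) and 3.45-fold lower in AGNHW (2.70 to 4.45).

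Ifi44 and Xaf1 come last by role. Ifi44, an interferon-induced protein of the cytoplasm, had 64 counts in Sham and 2 in each of the other libraries. It was 25.9-fold lower in Vehicle (6.87 to 218) and 31.1-fold lower in AGNHW (8.25 to 262), and 2 counts are under the 3 counts taken as the floor of detection. Xaf1, an antagonist of the caspase inhibitor Xiap, had 133, 78 and 95 counts. Its ratios to Sham, 0.726 in Vehicle (0.541 to 0.967) and 0.736 in AGNHW (0.560 to 0.965), were below 1 but short of the 1.5-fold limit. Of 7 listed apoptosis genes around Xaf1, 1 was lower in Vehicle than in Sham, Xiap, at 2.39-fold (2.11 to 2.71), and 0 were higher. This was near the share of all compared genes, of which 14.2% were lower and 8.66% higher.

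**Figure D2:**
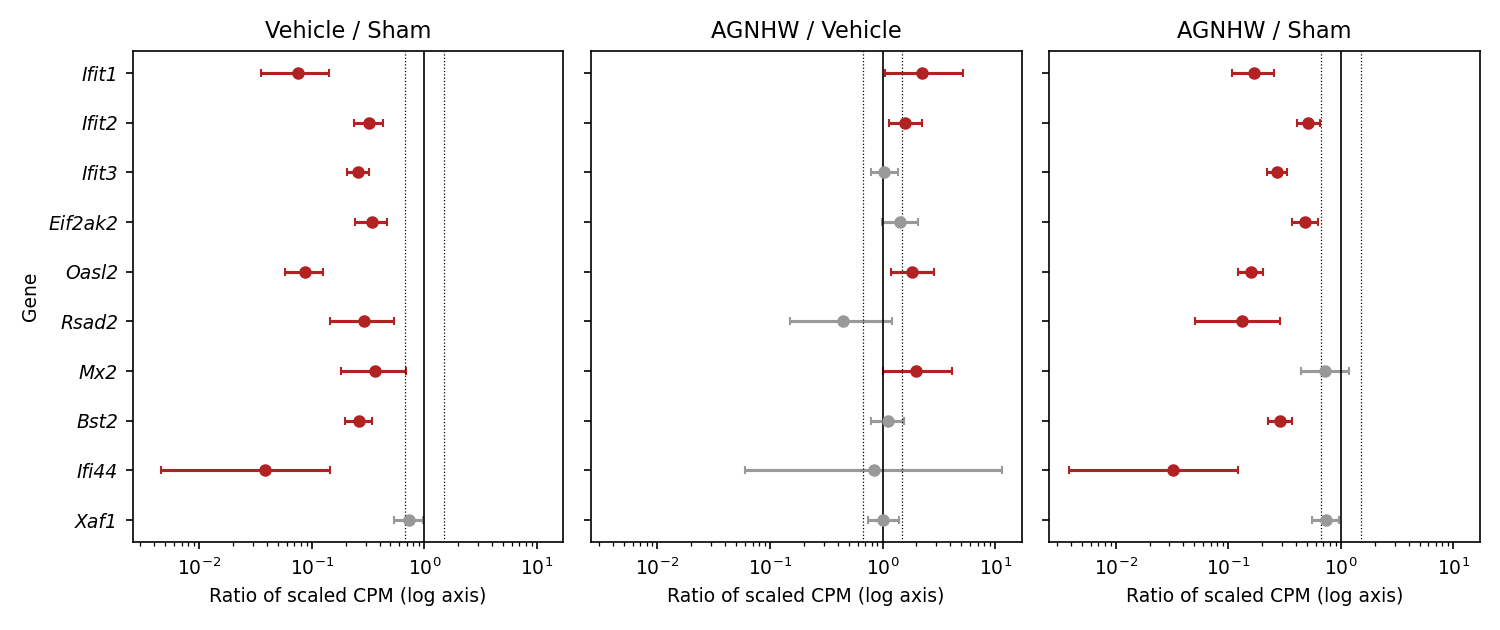
Ratio of TMM-scaled CPM (horizontal log axis) for each gene in the 3 comparisons, with 95% counting intervals; red marks genes past the size rule, grey those that are not, and dotted lines mark 1.5-fold either way. Red points lie on the low side in both comparisons with Sham and on the high side in AGNHW against Vehicle, where most genes are grey.

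In Vehicle against Sham, Oasl2, Ifit1 and Ifi44 differed most, as seen after their values were known. The upper bounds of the ratio were 0.125 for Oasl2, 0.141 for Ifit1 and 0.145 for Ifi44, and the lowest lower bound among the other genes was 0.147, for Rsad2. Xaf1 lay at the other end, and its interval overlapped only those of Mx2 and Rsad2. The remaining genes, Ifit2, Ifit3, Eif2ak2, Rsad2, Mx2 and Bst2, were between 2.74-fold and 3.85-fold lower and had overlapping intervals. After correction for a trend in transcript length and GC content, these groups were no longer separate. Bst2 then had a ratio of 0.182 (0.136 to 0.239), overlapping Ifit1 and Ifi44, whose upper bounds were 0.164 and 0.200. The interval of Bst2 then lay below that of Ifit2 (0.310 to 0.564), which overlapped that of Xaf1 (0.555 to 0.992). Of the 3 genes that differed most without the correction, Ifit1 held the promoter core with a spacing of 2 bases and Oasl2 and Ifi44 did not.

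The order of the levels was compared per length. Per kilobase of transcript, Bst2 had the highest level of the 10 genes in each library, 20.1 CPM per kb in Sham, 5.23 in Vehicle and 5.81 in AGNHW, and Ifit3 the second highest. Oasl2 ranked 3 in Sham, 6 in Vehicle and 5 in AGNHW. Ifit1 ranked 4 in Sham and 8 in each of the other libraries, while Xaf1 ranked 6 in Sham and 3 in the others. As a share of the summed CPM of the 10 genes, Oasl2 made up 21.3% in Sham, 7.45% in Vehicle and 10.8% in AGNHW, and Xaf1 6.42%, 18.8% and 15.0%.

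Against the whole transcriptome, the median log2 ratio of the 10 genes between Vehicle and Sham was -1.71, where the median of all compared genes was 0.01. Between AGNHW and Sham it was -1.79 against -0.000657. There, 8 of the 10 genes were lower and 0 higher, where 5.47% of all compared genes were lower and 3.32% higher. Both comparisons share the Sham library. Oasl2, Ifit1 and Ifi44 held ranks 1 to 3 from the lowest log2 ratio in Vehicle against Sham, and Ifi44 held rank 1 in AGNHW against Sham. These ranks used a prior count of 5. With a prior count of 1 the order of the 3 genes in Vehicle against Sham was reversed, at -4.19 for Ifi44, -3.63 for Ifit1 and -3.49 for Oasl2. In Vehicle, 4 of the 10 genes (Ifit1, Rsad2, Mx2 and Ifi44) were under 1 CPM. Rsad2 and Ifi44 passed the limit on the mean through Sham, and Ifit1 and Mx2 through Sham and AGNHW. In AGNHW, 2 of the 10 were under 1 CPM, Rsad2 at 0.383 and Ifi44 at 0.110. Both are among the 8 genes lower in AGNHW than in Sham.

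**Figure D3:**
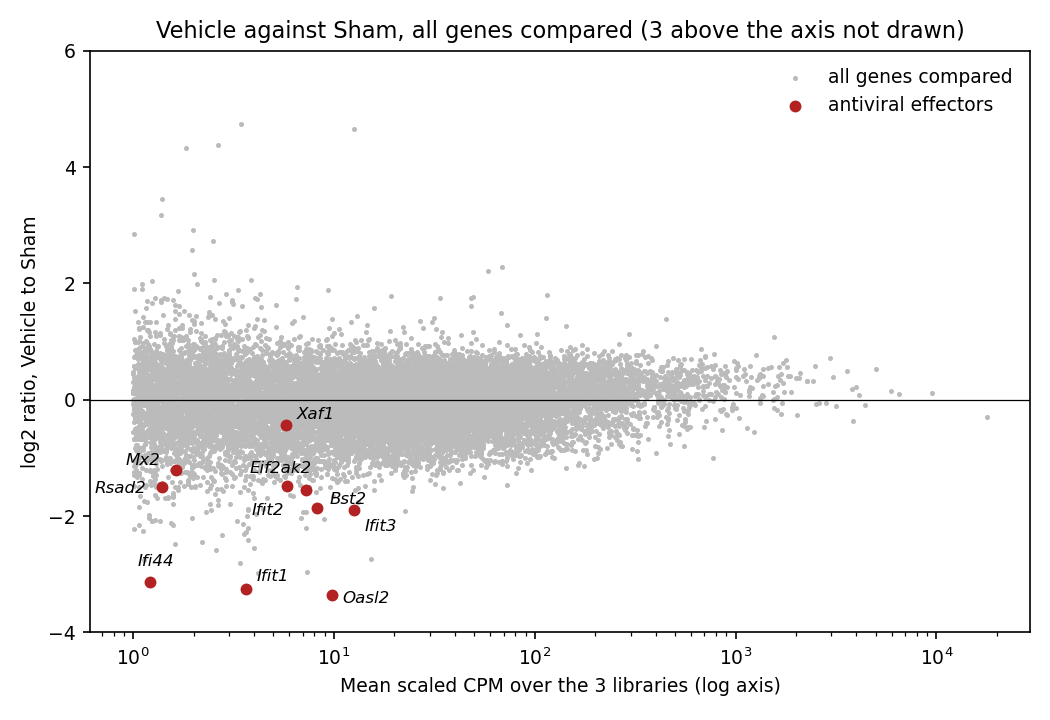
log2 ratio of Vehicle to Sham (vertical axis) against mean TMM-scaled CPM over the 3 libraries (horizontal log axis) for the 15558 genes compared, with the 10 antiviral effectors in red; 3 genes lie above the vertical axis. Xaf1 lies within the cloud of all genes, while Oasl2, Ifit1 and Ifi44 lie along its lower edge.

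Between AGNHW and Vehicle fewer of the genes passed. Of the 10 genes, 4 were higher in AGNHW than in Vehicle and 0 lower, where 4.01% of all compared genes were higher and 2.56% lower, and the median log2 ratio was 0.30 against 0.00 for all compared genes. The ratio was 2.25 for Ifit1 (1.05 to 5.21), 1.99 for Mx2 (1.01 to 4.14), 1.83 for Oasl2 (1.18 to 2.89) and 1.59 for Ifit2 (1.15 to 2.23). Even so, AGNHW held 15.9% of the Sham level of Oasl2 (12.1% to 20.5%) and 16.9% of that of Ifit1 (10.8% to 25.4%). For Eif2ak2 the ratio was 1.42 (0.987 to 2.05), short of the 1.5-fold limit.

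The other genes did not pass either way. Ifit3, Bst2 and Xaf1, with at least 63 counts in each library, had ratios of 1.04 (0.788 to 1.37), 1.11 (0.791 to 1.56) and 1.01 (0.744 to 1.39). Rsad2 had a ratio below 1, 0.448 (0.152 to 1.21), on 13 and 7 counts. For Ifi44, with 2 counts in each, the ratio was 0.833 (0.0604 to 11.5). The interval of Ifit2 overlapped that of Ifit3, and whether the genes differ from each other in AGNHW against Vehicle is not settled by these counts. After correction for a trend in transcript length and GC content, only Oasl2 and Mx2 of the 4 genes passed, where 448 of 15234 genes were higher, and Ifit1 had a ratio of 2.09 (0.98 to 4.84). At a 2-fold limit only Ifit1 passed, where 175 of 15558 genes were higher.

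The steps before the effectors were described from lists of pathway genes. Over all compared genes, 14.2% were lower in Vehicle than in Sham and 8.66% higher. None of the 13 listed interferon ligand genes was among the counted symbols (0 of 13). Of 8 compared receptors and kinases, 1 was lower in Vehicle than in Sham, Jak2 at 1.63-fold (1.40 to 1.89), and 0 were higher. The receptor chains Ifnar1 and Ifnar2 had ratios of 0.826 (0.736 to 0.927) and 1.10 (0.919 to 1.32), and Jak1 one of 0.822 (0.765 to 0.882). The list's median log2 ratio was 0.02, near that of all genes.

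Of the pathway's transcription factors, 3 are described. Irf7, which amplifies interferon production, was 8.79-fold lower in Vehicle than in Sham (6.07 to 13.1), with 337 counts in Sham, 31 in Vehicle and 40 in AGNHW. Irf9 was 1.84-fold lower (1.52 to 2.24) and Stat2 1.59-fold lower (1.41 to 1.79), and the intervals of both lay below that of Irf7. Of 13 compared sensors and adaptors of viral nucleic acid, 4 were lower and 1 higher, where 14.2% of all compared genes were lower and 8.66% higher. Among the 4, the RNA helicases Ifih1 and Ddx58 were 2.96-fold (1.81 to 5.06) and 2.84-fold lower (2.03 to 4.05). The RNA receptor Tlr3 was 1.97-fold lower (1.37 to 2.86). Named after their values were seen, the others were Dhx58, with a ratio of 0.548, and the adaptor Mavs, which was higher at 1.57.

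Among 11 feedback and ISG15-conjugation genes, 7 were lower in Vehicle than in Sham and 1 higher, where 14.2% of all compared genes were lower and 8.66% higher. Isg15, which encodes a small protein tag, was 8.83-fold lower (5.11 to 16.5), its protease Usp18 was 7.20-fold lower (3.85 to 14.9), and Nlrc5, an activator of class I genes, was 6.33-fold lower (2.70 to 18.1). The gene that was higher, Socs3, is induced by many cytokines and had a ratio of 1.94 (named after its value was seen). Of 41 other compared antiviral effectors, 17 were lower and 1 higher. Phf11d was 15.1-fold lower (4.90 to 75.4), Oas2, a synthetase that activates RNase L, 4.65-fold (2.17 to 11.4), and Rtp4 4.37-fold (2.88 to 6.86). Few counts stood behind some of these folds. In Sham, Vehicle and AGNHW, Usp18 had 98, 11 and 12 counts, Nlrc5 47, 6 and 13, and Oas2 46, 8 and 8. Oasl1, a close relative of Oasl2, had 30, 1 and 2 counts and was too low to be compared. The gene that was higher was Ifitm2, at 1.6, named after its value was seen.

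The interferon-inducible GTPases, which attack vacuoles of intracellular pathogens, were lower in Vehicle than in Sham in 9 of 9 compared cases, with a median log2 ratio of -1.89. Gbp3 was 9.80-fold lower (5.88 to 17.5), Gbp5 6.61-fold (3.53 to 13.7) and Gbp2 6.34-fold (3.92 to 10.8). In AGNHW against Vehicle 4 of the 9 were higher and 0 lower, where 4.01% of all compared genes were higher and 2.56% lower. The 4 were Gbp5, with a ratio of 3.86 (1.99 to 8.22), and, named after their values were seen, Irgm2 at 2.21, Gbp9 at 2.13 and Irgm1 at 1.65. Of the class I presentation genes, 1 of 16 was lower in Vehicle (H2-T24, at 7.94-fold) and 0 were higher, both under the shares of all compared genes, 14.2% and 8.66%. Psmb10 and Psme1 had ratios of 1.46 (1.32 to 1.61) and 1.44 (1.29 to 1.60), short of the limit. Over all 108 compared genes of the pathway lists, 43 were lower in Vehicle than in Sham and 3 higher, against these same shares. Some of the 43, such as Usp18, Nlrc5 and Oas2, were under 1 CPM in Vehicle and in AGNHW. They passed the limit on the mean through Sham, so such genes enter the count because they are high in Sham. In AGNHW against Vehicle 2 of the 108 were lower and 8 higher, where 2.56% of all compared genes were lower and 4.01% higher. In AGNHW against Sham 39 of the 108 were lower and 5 higher, where 5.47% of all compared genes were lower and 3.32% higher. The 2 lower and the 5 higher were near these shares. These lists were written with earlier results of these data known, and their counts are a description.

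**Figure D4:**
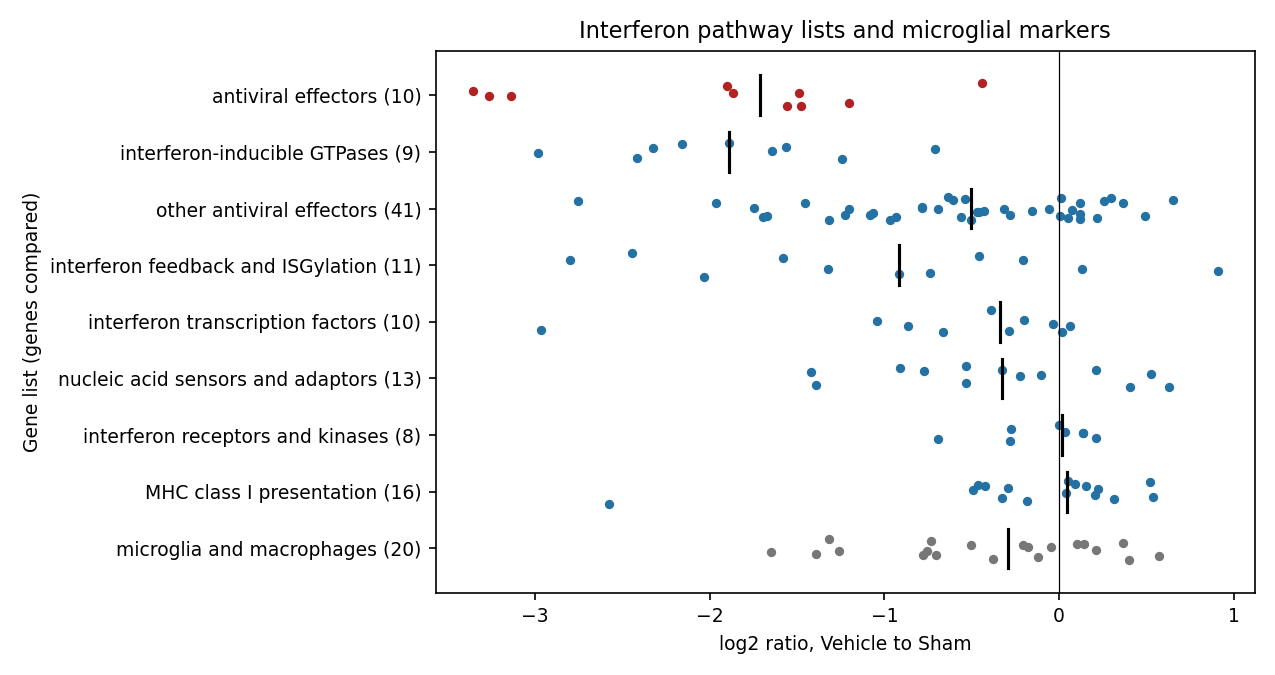
log2 ratio of Vehicle to Sham (horizontal axis) for each compared gene of the interferon pathway lists and of the microglial marker list (rows, number of genes in parentheses); black bars are list medians and vertical jitter carries no value. The medians are -1.71 for the antiviral effectors and -1.89 for the GTPases, and 0.02 for receptors and kinases and 0.05 for class I presentation.

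The promoter core was also found in 8 of 9 GTPase genes with a window (88.9%), in 17 of 39 other antiviral effectors (43.6%) and in 5 of 14 class I presentation genes (35.7%). It was found in 0 of 8 receptor and kinase genes. Over the compared genes with a window, the share was 3.39% (392 of 11553).

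Genes most like the effectors were sought by the distance of their log2 ratios, Vehicle to Sham and AGNHW to Vehicle, from the medians of the 10 genes, which uses only 3 libraries. The 10 nearest were Herc6, Trim30a, Parp14, Cntnap5b, Ddx58, Samd9l, St6gal2, P2ry12, Chrna7 and Zfp449. Herc6 had 118, 29 and 38 counts in Sham, Vehicle and AGNHW, and Parp14 132, 30 and 56. St6gal2, the most abundant of them, had 487, 131 and 235.

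Some markers of microglia and of other brain cells were lower in Vehicle than in Sham. Of 20 microglial and macrophage markers, 8 were lower and none (0) was higher, where 14.2% of all compared genes were lower and 8.66% higher. The median log2 ratio of the 20 markers was -0.29, with a summed level of 537 CPM in Sham, 472 in Vehicle and 485 in AGNHW. P2ry12, a receptor of resting microglia, was 3.25-fold lower in Vehicle (2.53 to 4.23), while C1qa and Tyrobp had ratios of 1.29 and 1.33. Lower in Vehicle than in Sham were also 4 of 15 endothelial, 3 of 11 oligodendrocyte, 2 of 12 astrocyte and 1 of 12 neuronal markers. In the same order, 2, 1, 1 and 0 were higher. In AGNHW against Vehicle, 2 of the 20 microglial markers were higher (P2ry12 and Fcrls) and 0 lower, where 4.01% of all compared genes were higher and 2.56% lower. None of the markers was at 0 in any library. Their part in the effectors' difference was not tested.

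Markers of other tissues stood apart in Vehicle. The 6 compared pituitary genes were higher in Vehicle than in Sham in 6 of 6 cases and lower in AGNHW than in Vehicle in 6 of 6, and red blood cell genes were higher in Vehicle in 5 of 7 and 0 lower. Choroid plexus genes summed to 977 CPM in Vehicle, 550 in Sham and 668 in AGNHW. Between AGNHW and Sham the pituitary and red blood cell lists had 0 genes past the rule either way, and the choroid plexus list had 1 higher, Aqp1, named after its value was seen. The part of these tissues in the effectors' values was not tested. Of 20 listed leukocyte genes 6 were counted, summing to 21.1, 26.9 and 28.5 CPM in Sham, Vehicle and AGNHW.

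The log2 ratio of Vehicle to Sham also followed transcript length and GC content over all genes, which explained 34.6% of its variance over 15234 genes. After correction 9 of the 10 effectors were lower in Vehicle and 0 higher, where 1046 of the 15234 genes were lower and 748 higher. In AGNHW against Sham 8 of the 10 were then lower, where 479 of the 15234 genes were. Bst2, the shortest transcript of the group at 792 bases, was 5.50-fold lower in Vehicle after correction, and Ifit2 2.38-fold. Ifi44 was 18.8-fold lower.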

How the data were processed

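Total RNA was taken up in Trizol and sequenced by Illumina protocols, per the labels. For each gene symbol the authors deposited a whole-number read count. Bowtie2 2.2.3, TopHat2 2.0.12, HTSeq 0.6.0 and build mm9 are named, per the submitters' processing notes. Their roles and strand setting were not given in the sources used here. No listed gene had under 21 counts in sum. Counts were scaled with TMM factors of edgeR 4.0.16 (R 4.3.3), 1.03 for Sham, 0.968 for Vehicle and 1.00 for AGNHW. No count model was fitted, since 1 library per group gives no spread. Log2 ratios used a prior count of 5. Ratios and intervals (Python 3.11.15, scipy 1.17.1) and the trend in length and GC content (additive splines, 6 knots, scikit-learn 1.9.0, GENCODE M21 transcripts) were tested on simulated data. Promoters are RefSeq, GRCm38.p6, not the build of the counts. Members and lists were chosen with earlier results of these data known. Some results for the transcription factors are not reported here. Whether a library is 1 mouse or a pool is unknown. Named were all 10 members, the 3 largest log2 ratios (Vehicle to Sham) of each pathway list, a few fixed pathway genes, and the 10 nearest genes by pattern with at least 50 counts in 1 library and no predicted or clone name.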

Additional observations from a re-analysis of the deposited data

How the results depend on the processing

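Alternatives were plain CPM, DESeq2 1.42.0 size factors, upper quartile factors, a 2-fold limit, no minimum or a minimum of 5 CPM, a prior count of 1, correction for length and GC content and, added after the data were seen, leaving out Ifi44 and scaling Sham and AGNHW alone. None of the 10 genes that had been called changed direction (0 reversals). The number lower in Vehicle than in Sham was 9 at each setting run for that comparison but a minimum of 5 CPM, where it was 5 of the 6 genes left, and without Ifi44, where it was 8 of 9. The number lower in AGNHW than in Sham was 8, and 5 of 6 at that minimum, where the median log2 ratio was -1.37, since fewer genes were compared; it was 7 at the 2-fold limit and 7 without Ifi44. The number higher in AGNHW than in Vehicle, 4, was 1 at the 2-fold limit, 2 at the minimum of 5 CPM and 2 after the correction. Of 208 log2 ratios of single genes under alternatives, 204 stayed within their counting interval and 4 moved, all under the correction. In Vehicle against Sham these were Ifit2 at -1.18, Bst2 at -2.39 and Ifi44 at -2.68, and in AGNHW against Sham Ifi44 at -2.96. These log2 ratios hold a prior count, while the interval is that of the ratio without it. Without the prior count, the corrected ratios of Ifit2 (0.421) and Ifi44 (0.0532 and 0.0386) lay inside their uncorrected intervals. Of these 4 values only that of Bst2, a ratio of 0.182, lay outside (0.195 to 0.343). Over all genes, the share of calls that were higher in Vehicle than in Sham was 37.9%, and 23.9% with plain CPM. For AGNHW against Vehicle it was 61.1%, and 72.3% with plain CPM. The median log2 ratio of all genes in Vehicle against Sham was then -0.07. The numbers over all genes moved by more than 1.5 times as follows. Of 2207 lower and 1348 higher in Vehicle than in Sham, 711 and 307 were left at the 2-fold limit and 1046 and 748 after the correction, and 882 higher at the minimum of 5 CPM and 890 with plain CPM. Of 398 lower and 624 higher in AGNHW than in Vehicle, 116 and 175 were left at the 2-fold limit, 126 and 295 at the minimum of 5 CPM, and 262 lower after the correction. Of 851 lower and 517 higher in AGNHW than in Sham, 192 and 179 were left at the 2-fold limit, 445 and 206 at that minimum, and 479 lower after the correction. Depth limits the genes with few counts in Vehicle, which were 2 for Ifi44, 10 for Ifit1 and 13 for each of Rsad2 and Mx2. No paired analysis was possible because each group has 1 library.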
